A study of Mus musculus with 7 samples.

Results

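Long CpG islands (CGIs), here autosomal CGIs of at least 2000 bp, numbered 451 of the 25829 autosomal CGIs that were called from the mm9 sequence, the genome build of the deposited files. A CGI was a stretch in which CpGs outweighed other bases in a running score, with a GC content over 50% and an observed/expected CpG ratio over 0.6, so that the pulldown played no part in the choice. The 451 islands covered 1.24 Mb, with a median length of 2455 bp and a median of 234 CpGs. Of these, 377 held a transcription start site (TSS) of a protein-coding gene, 37 lay in the body of one without a TSS, and 37 lay in neither. The cutoff fell in a continuous range of lengths: Dcaf5 (2002 bp) and Accn1 (2007 bp) were just inside and Fzd2 (1997 bp) and Socs1 (1995 bp) just outside.

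5-Formylcytosine (5fC) was mapped in J1 cells, a mouse ES cell line of the 129S4/SvJae background, by attaching biotin to the formyl group, capturing the DNA and sequencing it. There were 2 libraries of TDG KD cells, transfected with siRNAs against Tdg (BHAM480 and EAR003), 2 of siRNA control cells, transfected with a non-targeting siRNA (BHAM479 and EAR001), and 2 of wild-type cells without siRNA (BHAM359 and BHAM470). The siRNA cultures went through repeated rounds of transfection without feeder cells, whereas wild-type cells grew on irradiated embryonic fibroblasts, so siRNA treatment and feeder cells cannot be told apart. One input library of wild-type cells was the background of all 6 pulldowns, and wherever a pair of values is given for a group it follows the order of the libraries named here.

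CGIs are CpG-dense stretches that escape most DNA methylation and house the promoters of most housekeeping and many developmental genes. TET enzymes oxidize 5-methylcytosine to 5-hydroxymethylcytosine and on to 5fC, and the glycosylase TDG excises 5fC so that repair can restore cytosine. Unusually long CGIs are known for lying over genes of developmental regulators, many of which are held by Polycomb proteins in ES cells.

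The sequence of 4 islands shows what these regions are made of, and each is the stretch of 200 bases with the most CpGs in its island that touches no annotated UTR. Plec (chr15:76009918-76010117, gene body) was enriched over its whole length in every library. Pcdh10 (chr3:45184809-45185008, gene body) was enriched in both TDG KD libraries and neither siRNA control library. Sp3 (chr2:72816839-72817038) and Qk (chr17:10512291-10512490) were enriched in no library. The Plec and Pcdh10 stretches were coding in all 200 bases, 84 bases of the Sp3 stretch were coding, and that of Qk held no coding base. All are from mm9, plus strand, 5′ to 3′, with each CpG in capitals.
Plec: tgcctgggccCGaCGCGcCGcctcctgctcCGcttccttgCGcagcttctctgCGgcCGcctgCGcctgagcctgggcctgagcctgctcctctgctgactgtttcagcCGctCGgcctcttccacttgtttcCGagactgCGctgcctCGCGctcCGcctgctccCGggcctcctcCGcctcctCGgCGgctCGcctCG
Pcdh10: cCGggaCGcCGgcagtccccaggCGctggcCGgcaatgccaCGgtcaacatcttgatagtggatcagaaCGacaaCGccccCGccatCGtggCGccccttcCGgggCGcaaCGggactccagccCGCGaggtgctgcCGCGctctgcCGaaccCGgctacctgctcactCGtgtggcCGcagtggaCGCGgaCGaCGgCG
Sp3: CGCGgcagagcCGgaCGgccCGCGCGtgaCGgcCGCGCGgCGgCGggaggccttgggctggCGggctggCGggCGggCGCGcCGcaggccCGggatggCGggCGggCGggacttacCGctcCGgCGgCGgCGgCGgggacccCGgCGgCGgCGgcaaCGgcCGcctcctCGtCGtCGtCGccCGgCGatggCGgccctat
Qk: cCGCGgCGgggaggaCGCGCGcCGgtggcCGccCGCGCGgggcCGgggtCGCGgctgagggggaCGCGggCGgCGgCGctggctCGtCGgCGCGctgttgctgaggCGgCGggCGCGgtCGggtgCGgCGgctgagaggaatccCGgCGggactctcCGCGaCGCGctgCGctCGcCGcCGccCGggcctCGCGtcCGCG
These stretches held 22 CpGs in Plec, 27 in Pcdh10, 42 in Sp3 and 45 in Qk. Over the whole island the density was 6.63 CpGs per 100 bp in Plec, 7.88 in Pcdh10, 12.7 in Sp3 and 14.6 in Qk. The islands without enrichment shown here were thus the densest of the 4 in CpGs. They were chosen by their enrichment, so this is a description of these islands alone.

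The deposited files divide the genome of each library into enriched, background and unconfident domains, and a CGI was called enriched when at least 50% of its length lay in enriched domains. The libraries differed widely in these domains, with between 4901 and 40121 enriched domains in the siRNA libraries and 389620 in BHAM359. BHAM480 stood apart, with 161.1 Mb enriched and 504.9 Mb unconfident, against 475.3 to 566.2 Mb enriched and 0.214 to 6.30 Mb unconfident in the other 5. In BHAM480, 33.4% of the length of the long CGIs was unconfident, which counts here as not enriched. The second measure was the excess, the domain value (pulldown minus input reads per 100 bp bin) minus the mean of the library, divided by the library's uniquely placed reads in megareads (M reads). The library mean was lowest in BHAM480 (−0.277), the pulldown with the fewest uniquely placed reads, and highest in BHAM359 (0.793), the one with the most. An input not scaled to pulldown depth would weigh differently in the excess of each library. Differences in excess between libraries carry this limit, which was not tested.

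Long CGIs were more often in enriched domains than shorter CGIs in every library. The mean share of length enriched was 30.1% and 82.2% in the TDG KD libraries, 61.0% and 47.1% in the siRNA control and 76.7% and 70.8% in wild type. Shorter CGIs were at 15.9% and 50.9%, 41.3% and 37.3%, and 57.5% and 44.2% in the same libraries. Averaged over libraries this was 61.3 ± 19.7% against 41.2 ± 14.3% (SD, n = 6), a difference of 20.1 percentage points (exact two-sided sign-flip permutation test over libraries, p = 0.03125, the smallest possible; 0.0469 after Benjamini-Hochberg adjustment over 9 such tests). The excess was higher by 0.00853 reads per bin per M reads, in 6 of 6 libraries (same exact test, p = 0.03125, adjusted 0.0469).

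Much of this difference went with repeated sequence. Of the 451 long CGIs, 34 had more than 25% of their 40-base words at more than 1 place in the genome, where uniquely placed reads are scarce, against 9626 of the 25378 shorter CGIs. Those 34 were enriched over 2.94% and 5.88% of their length in TDG KD, 8.82% and 5.88% in the siRNA control and 11.7% and 14.7% in wild type. Among CGIs of mostly unique sequence, the difference between 417 long and 15752 shorter islands was 6.27 percentage points (exact sign-flip permutation test, p = 0.125). It was negative in EAR001, with 50.5% against 52.2%, and in BHAM359, with 82.0% against 85.3%. The CGIs of unique sequence just shorter, from 1000 bp up to the limit of 2000 bp, were at 22.3% and 75.7% in TDG KD, 53.2% and 44.3% in the siRNA control and 84.7% and 61.0% in wild type.

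**Figure D1:**
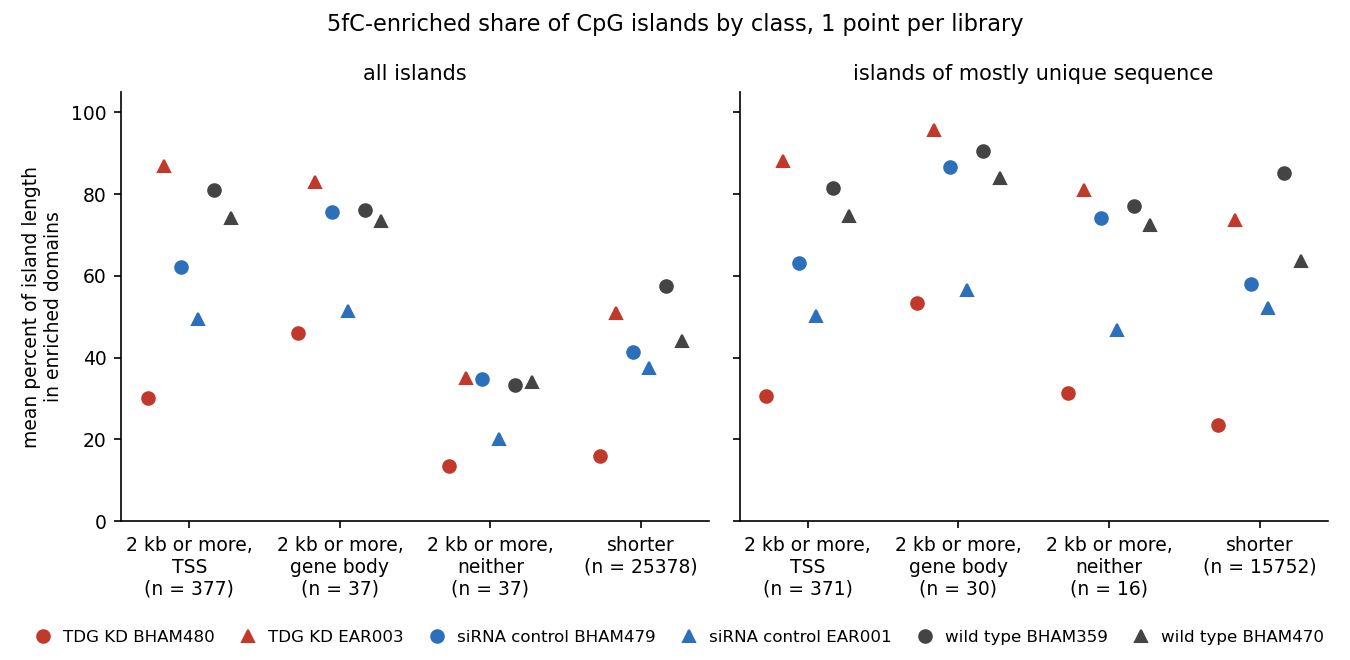
Mean percent of island length in enriched domains (y axis) for long CGIs by class and for shorter CGIs (x axis, with the number of islands), 1 point per library, for all islands (left) and those of mostly unique sequence (right). On the left the neither class lies lowest, between 13.5% and 35.0%. On the right it lies between 31.2% and 81.0%, within the range of the TSS class.

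The 6 libraries called very different numbers of long CGIs. EAR003 called 375 of the 451 (83.1%, against 51.7% of all autosomal CGIs) and BHAM480 135 (29.9%, against 16.1%). BHAM479 called 278 (61.6%, against 41.7%) and EAR001 211 (46.8%, against 37.5%). BHAM359 called 372 (82.5%, against 59.2%) and BHAM470 324 (71.8%, against 44.7%). Repeated islands, more frequent among shorter CGIs, are part of these shares. Among unique sequence, EAR001 called 50.1% of long against 52.1% of all CGIs, and BHAM359 88.2% against 87.4%. In the other libraries the share of long CGIs stayed higher, from 65.9% against 58.3% in BHAM479 to 89.4% against 74.4% in EAR003. Domains over the 417 unique long CGIs were far wider than the islands in 5 libraries, with medians of 100100 and 20600 bp in TDG KD, 46000 and 133400 bp in the siRNA control and 32300 bp in BHAM470, whereas the median was 2450 bp in BHAM359. In EAR001, 205 of these islands were covered completely, 199 not at all and 13 in part. In BHAM359, 239 were covered in part. Neighbouring islands could therefore share 1 call. Over the islands covered completely or in part lay 196 distinct enriched domains in EAR001. In BHAM480 there were 120 such domains, with 127 islands covered completely and 13 in part. Of the 451 islands, 46 had another long CGI within 100 kb.

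Relative to their own flanks, 3 to 5 kb from either end, the long CGIs stood out in some libraries only. The share enriched was 30.1% and 82.2% in the islands against 26.5% and 50.7% in the flanks in TDG KD, 61.0% and 47.1% against 47.1% and 47.4% in the siRNA control, and 76.7% and 70.8% against 38.6% and 52.3% in wild type. The mean difference was 17.6 ± 15.1 percentage points (SD, n = 6) and positive in 5 of 6 libraries (exact sign-flip permutation test, p = 0.0625, adjusted 0.0703). EAR001 was the exception, with a difference of −0.275 percentage points. The excess was higher in the islands by 0.00903 in 6 of 6 libraries (exact sign-flip permutation test, p = 0.03125, adjusted 0.0469), and by 0.00555 without BHAM359. Without BHAM359 the smallest possible p was 0.0625.

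**Figure D2:**
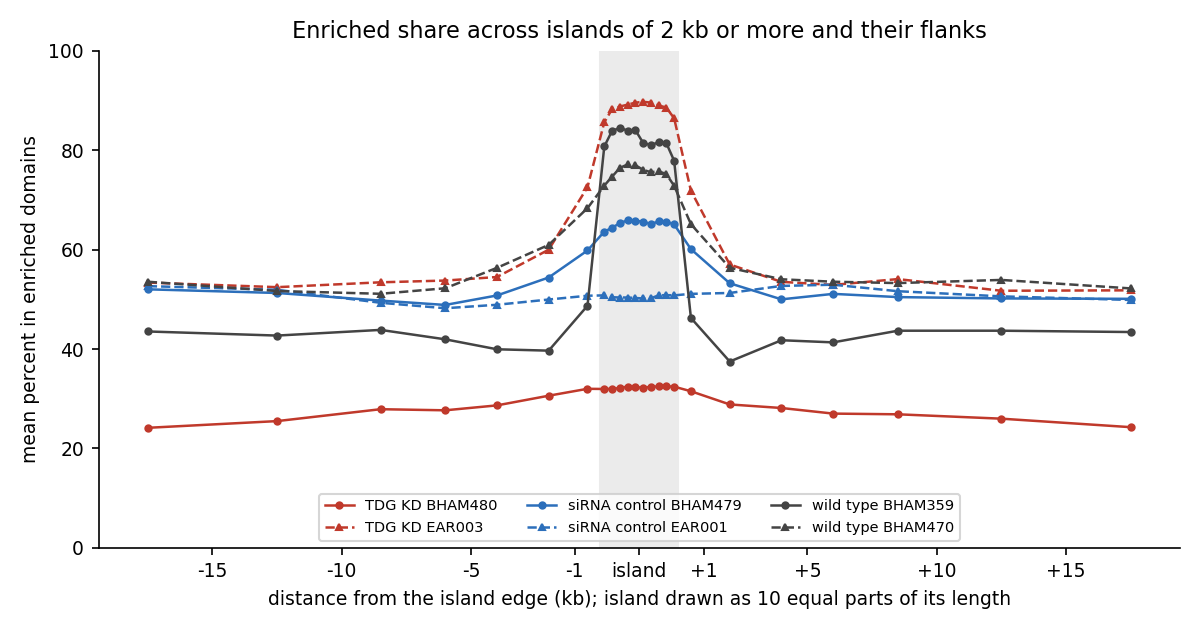
Mean percent of sequence in enriched domains (y axis) across the 417 unique long CGIs, drawn as 10 equal parts on grey, and their flanks by distance in kb (x axis), 1 line per library. EAR003, BHAM479, BHAM359 and BHAM470 are higher in the island than at 3 to 5 kb, while EAR001 and BHAM480 are nearly level.

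Within the islands the profile was nearly level. In every library but BHAM359 the domains were far wider than the islands, so a level profile there follows largely from domain width. In EAR003 the 10 parts lay between 85.6% and 89.7%, in BHAM359 between 77.9% and 84.5%, and in EAR001 between 50.2% and 50.8%. For the same 417 unique islands, whose own mean share was 32.3% and 88.5% in TDG KD, 65.2% and 50.5% in the siRNA control and 82.0% and 75.3% in wild type, the share in the 1000 bp next to them was 31.7% and 72.2% in TDG KD, 60.0% and 50.9% in the siRNA control and 47.5% and 66.7% in wild type. On 249 islands with at least 300 bp on each side of a TSS, the side downstream of the TSS was enriched over 26.7% and 87.3% of its length in TDG KD, 62.5% and 49.6% in the siRNA control and 81.2% and 73.1% in wild type. The upstream side was at 26.9% and 86.5%, 60.9% and 50.1%, and 75.1% and 70.3% in the same libraries. BHAM359, with its narrow domains, showed the widest gap between the sides.

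Long CGIs over a TSS and those in gene bodies were both more enriched than those in neither. The TSS class was at 63.9 ± 21.3%, the body class at 67.6 ± 15.1% and the neither class at 28.5 ± 9.26% (SD over the 6 libraries). TSS islands exceeded the neither class by 35.5 percentage points and body islands exceeded it by 39.1, each in 6 of 6 libraries (exact sign-flip permutation tests, p = 0.03125, adjusted 0.0469). Of the 37 islands in neither, 21 were repeated sequence. Without repeated islands TSS exceeded neither by 0.983 percentage points (exact sign-flip permutation test, p = 0.75) and body exceeded neither by 14.0 (exact test, p = 0.03125). With GC of at least 55% and a CpG ratio of at least 0.65 the differences were 12.5 and 22.9.

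TSS and body islands differed by −3.66 percentage points (exact sign-flip permutation test, p = 0.4375), with TSS islands higher in 3 of 6 libraries. Its direction was not stable: it was 9.85 among islands of at least 3000 bp, 2.69 when a TSS within 1 kb counted and 0.831 with transcripts of all gene types. Without repeated islands the difference was −13.0 percentage points (exact sign-flip permutation test, p = 0.03125), with the 371 TSS islands at 30.6% and 88.2%, 63.1% and 50.2%, and 81.6% and 74.8%, and the 30 body islands at 53.3% and 95.6%, 86.6% and 56.7%, and 90.5% and 84.0%, in TDG KD, siRNA control and wild type in turn. The excess of TSS islands was 0.00251 below that of body islands, lower in 6 of 6 libraries (exact sign-flip permutation test, p = 0.03125, adjusted 0.0469). This difference was −0.00126 without chromosome 8 (p = 0.1875 by the exact test) and turned sign among islands of at least 3000 bp (0.000511, exact p = 0.6875) and when a TSS within 1 kb counted (2.75e-05, exact p = 1). The body islands lay largely in exons, with a median of 57.2% of their length coding, against 12.9% for TSS islands.

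Of the long CGIs, 89 (19.7%) were enriched in all 6 libraries, against 11.8% of all autosomal CGIs, and 45 (9.98%) in none, against 31.6%. Among unique sequence the shares were 21.1% of long CGIs against 18.0% of all for enrichment in all 6, and 4.56% against 5.60% for none. The count for all 6 rests on BHAM480, without which 175 islands were enriched in every library. By class, 75 of 377 TSS islands, 11 of 37 body islands and 3 of 37 in neither were enriched in all 6. The islands in none were 19 with a TSS, 6 in gene bodies and 20 in neither, of which 26 were repeated sequence.

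**Figure D3:**
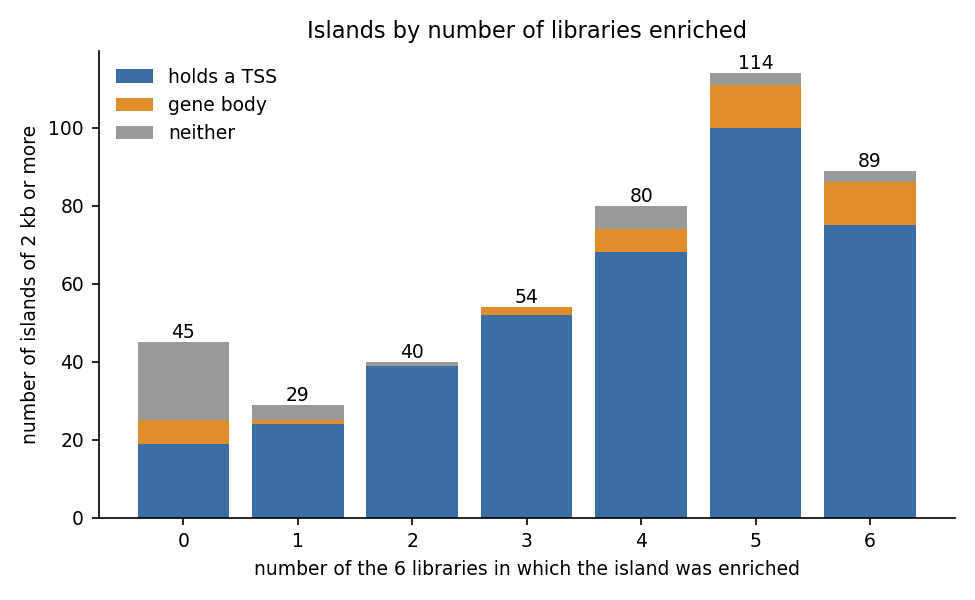
Number of long CGIs (y axis) by the number of libraries in which they were enriched (x axis), stacked by class. Enrichment in 5 libraries was the most frequent, with 114 islands, and the neither class makes up 20 of the 45 enriched in none.

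The longest island of unique sequence was that of Hic1, a zinc finger transcriptional repressor (chr11:74978810-74987357, 8548 bp). All of it was enriched in all 6 libraries, with an excess of 0.0147 and 0.0376 in TDG KD, 0.0193 and 0.0106 in the siRNA control and 0.0710 and 0.0278 in wild type. Bahcc1, which encodes a bromo-adjacent homology domain protein (7179 bp), was also enriched in all 6, with 77.7% in BHAM359 and 100% elsewhere. Egr3, an immediate early transcription factor (5948 bp), had 79.8% in BHAM359 and 100% elsewhere.

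Other long islands were not covered in every library. Lbx1, a homeobox factor of muscle precursors and spinal cord neurons (5999 bp), was at 0% in BHAM480, where all of it was unconfident, and in EAR001, 67.9% in BHAM359 and 100% in the other 3. Cyp26b1, which breaks down retinoic acid (5899 bp), was under the 50% call in BHAM359 alone, at 45.8%. Skor1, a transcriptional corepressor (5545 bp), was under it in EAR001 alone, at 46.4%. The remaining 4 of the 10 longest islands were in neither class, and 3 of them, on chromosomes 3, 10 and 2, were repeated sequence enriched in no library.

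The other was a 5823 bp island on chromosome 17 (chr17:39979946-39985768), over the pseudogene AY036118. Its excess was 0.471 and −0.00911 in TDG KD, 0.0525 and 0.149 in the siRNA control and 0.178 and −0.00655 in wild type. The groups overlapped, and in each group 1 library was far above the other. This island set the mean of its class: with it the neither class averaged 0.0134 in BHAM480, without it 0.000676. The excess of body over neither islands was 0.0128 in 5 of 6 libraries with it (exact sign-flip permutation test, p = 0.0625, adjusted 0.0703) and 0.0164 without it (exact p = 0.03125). Without repeated islands, but with the AY036118 island kept, it turned sign, at −0.000249 (exact p = 1). With both left out, the neither class averaged 0.00725 and 0.0229 in TDG KD, 0.0203 and 0.00357 in the siRNA control and 0.0358 and 0.0224 in wild type. The body class without repeated islands averaged 0.0148 and 0.0340, 0.0199 and 0.00735, and 0.0562 and 0.0236 in the same libraries. It was then below the neither class in BHAM479 only, and this difference was not tested.

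The TSS islands of highest mean excess were all on chromosome 8: Ssbp4, which encodes a single-stranded DNA-binding protein, Isyna1, the enzyme of inositol synthesis, and Nr2f6, an orphan nuclear receptor. Ssbp4 had 0.0304 and 0.0572 in TDG KD, 0.0404 and 0.0269 in the siRNA control and 0.0803 and 0.0395 in wild type. Isyna1 and the body island of Comp, a cartilage matrix protein, had the same values as Ssbp4 in 5 libraries, because 1 domain of 694.2 to 1241.2 kb lay over all 3 islands there. In BHAM359 they lay in 3 separate domains.

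Chromosome 8 had the highest share of sequence in enriched domains of all autosomes in the 4 siRNA libraries, and chromosome 11 in both wild-type libraries. Its 31 long CGIs were enriched over 78.2% and 100% of their length in TDG KD, 96.8% and 100% in the siRNA control and 88.9% and 96.8% in wild type, against 26.5% and 80.9%, 58.3% and 43.2%, and 75.9% and 68.9% for the 420 on other autosomes. Of the 31, 22 were enriched in all 6 libraries, against 67 of the 420. Enriched domains took 29.2% and 47.8% of chromosome 8 in TDG KD, 54.4% and 60.7% in the siRNA control and 25.5% and 34.2% in wild type, against 5.53% and 22.1%, 22.1% and 20.5%, and 19.7% and 21.6% of the other autosomes. Enriched domains took 17.4% and 41.5% of chromosome 11 in TDG KD, 43.0% and 44.3% in the siRNA control and 30.6% and 37.7% in wild type, and its 31 long CGIs were at 67.8% and 95.2%, 84.7% and 86.9%, and 85.1% and 90.6% in the same libraries. The part of the chromosome-wide level in the values of these islands was not tested.

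Plec, which encodes the cytoskeletal linker plectin, held the longest body island of unique sequence (chr15:76007162-76012337, 5176 bp, 97.3% coding). All of it was enriched in all 6 libraries, with an excess of 0.0381 and 0.0507 in TDG KD, 0.031 and 0.0145 in the siRNA control and 0.0897 and 0.0421 in wild type. Foxc2, a forkhead factor whose island starts 42 bp from an annotated TSS, and Comp were the other body islands of highest excess. The body islands of Park2, Fgf12 and Kcnab1 had the lowest excess and were 99.7 to 100% repeated sequence, with 0% enriched in every library. Among islands in neither class, one of 3654 bp on chromosome 11 (chr11:118914542-118918195), 12259 bp from the TSS of Cbx8, was enriched over its whole length in all 6 libraries.

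Among the 417 unique long CGIs, those with a higher observed/expected CpG ratio were less enriched. In the third with the lowest ratio (up to 0.783) the mean share was 35.4% and 95.6% in TDG KD, 81.4% and 60.3% in the siRNA control and 87.8% and 88.4% in wild type. In the third with the highest ratio (from 0.864) it was 27.6% and 77.1%, 43.8% and 38.0%, and 73.5% and 57.0% in the same libraries. Spearman's correlation of the ratio with the share over the 417 islands was −0.0798 and −0.281 in TDG KD, −0.332 and −0.204 in the siRNA control and −0.235 and −0.321 in wild type. These correlations describe islands that share libraries, domains and depth. Length was nearly unrelated to the share, with correlations from −0.116 in BHAM359 to 0.0734 in BHAM479.

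**Figure D4:**
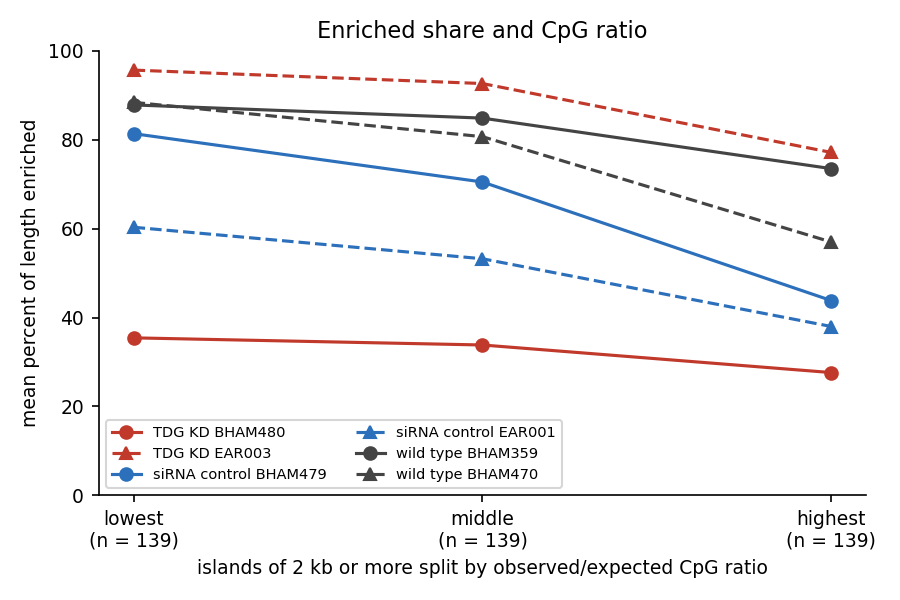
Mean percent of length enriched (y axis) for the unique long CGIs in 3 equal groups of 139 by observed/expected CpG ratio (x axis), 1 line per library. Every line is lowest in the group of highest ratio, and BHAM479 shows the largest drop, to 43.8% against 81.4% in the group of lowest ratio.

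The 19 unique islands enriched in no library had a median ratio of 0.943, against 0.806 in the 88 enriched in all 6, and 17 of them held a TSS. Among them were Sp3, a GC-box binding transcription factor, Pou2f1, an octamer-binding factor, Qk, an RNA-binding protein, Chd7, a chromatin remodeler, Dyrk1a, a kinase, and Arid1b, a subunit of SWI/SNF complexes. Qk had the lowest values among these in EAR003, with an excess of −0.00976 and −0.0164 in TDG KD, −0.0115 and −0.00718 in the siRNA control and 0.0126 and −0.00980 in wild type, and 35.4% of its length was enriched in BHAM359. Sp3 had an excess of −0.0147 and −0.00940, −0.00790 and −0.00634, and 0.00393 and −0.00696 in the same libraries, with 22.8% enriched in BHAM359. Efna5, an ephrin ligand (3036 bp), was the longest unique island of the 19 and reached 40.7% in BHAM359. Phf17, a subunit of a histone acetyltransferase complex, was at 0% in all 6. Arid1b reached 42.5% in EAR003. In 16 of the 19 the share was above 0 in BHAM359, whose domains are narrow.

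Long CGIs were unevenly spread over gene families. At least 1 TSS of 412 of 21281 protein-coding genes (1.94%) lay in one. This was so for 25 of 108 listed homeobox genes outside the Hox clusters, 20 of 75 Sox, Gata, Tbx and Fox genes, 5 of 44 basic helix-loop-helix (bHLH) genes and 4 of 23 Zic, Gli and Klf genes. The lists were made by gene symbol and not all were complete. Gsc, Pou2f1 and Lmx1b, for example, also had a TSS in a long CGI but were not among the homeobox members with one. Foxf1a was likewise missing from the Fox members and Npas1 from the bHLH members, so the counts are for listed genes only. A TSS lay in a long CGI for none of 39 Hox genes, none of 24 clustered protocadherins and 3 of 155 ribosomal protein and histone genes. These are features of the sequence and annotation, with no pulldown value in them.

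The islands of the listed homeobox genes, which encode DNA-binding patterning factors, were enriched in 10 and 24 of 25 cases in TDG KD, 18 and 12 in the siRNA control and 22 and 23 in wild type. Of all 377 long CGIs with a TSS, the same libraries called 113 and 331 (30.0% and 87.8%), 237 and 185 (62.9% and 49.1%), and 331 and 283 (87.8% and 75.1%), which is the background for each list here. Irx2, Irx3, Irx5 and Nkx6-2, patterning factors of the neural tube and other tissues, were enriched in all 6 libraries. Of these, Irx3 and Irx5 lie on chromosome 8, where 22 of 31 long CGIs were enriched in all 6, against 67 of the 420 elsewhere. Emx2, a factor of the developing forebrain, was at 100% in EAR003, 42.0% in BHAM359 and 0% in the other 4. Hmx2 was enriched in the wild-type libraries only, at 99.0% and 85.3%, against 0% in all 4 siRNA libraries.

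The islands of the listed Sox, Gata, Tbx and Fox genes were enriched in 1 and 20 of 20 cases in TDG KD, 12 and 5 in the siRNA control and 19 and 17 in wild type. Foxf1a, on chromosome 8, was not among these 20. On that chromosome BHAM480 called 24 and EAR001 31 of the 31 long CGIs. The TDG KD libraries called the fewest and the most, as they did among all long CGIs. Foxa2, a factor of endoderm and floor plate, was the case called in BHAM480, and it was at 0% in EAR001 alone. Gata2, a hematopoietic factor, was at 0% in BHAM480, 82.6% in BHAM359 and 100% in the other 4. Foxo3, the longest of the list (3822 bp), was at 0% in BHAM480 and EAR001 and 100% in the other 4. The islands of Gata2 and Foxo3 were unconfident over their whole length in BHAM480.

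Among the pluripotency genes, Klf4, Mycn, Sox2 and Tbx3 held long CGIs, and 0 of the 4 were enriched in BHAM480 or EAR001, which called 30.0% and 49.1% of all long TSS islands. Klf4 (3121 bp) was at 97.9% in EAR003, 100% in BHAM479, 64.8% in BHAM359 and 75.5% in BHAM470. Sox2 (2537 bp) was at 100% in EAR003, 91.4% in BHAM359 and 0% in the other 4. Of the ligand genes, Wnt3a and Wnt5a were at 100% in all 6 libraries.

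A long CGI lay at a TSS of 2 of 25 genes of DNA methylation and demethylation and 1 of 27 Polycomb genes. Dnmt3a, a de novo methyltransferase, was at 0% in BHAM480, 38.2% in BHAM359 and 100% in the other 4. Gadd45g, which has been linked to demethylation, was at 0% in BHAM480 and 100% in the other 5. Cbx8, a Polycomb reader of histone methylation, was at 100% in all 6. In BHAM480 the islands of Dnmt3a and Gadd45g were unconfident throughout, as were those of Bhlhe41, Efna3 and Cdkn1c.

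Among the listed bHLH genes the longest island was that of Bhlhe41, a repressor of the circadian system (4082 bp). It was at 0% in BHAM480 and EAR001, 66.1% in BHAM359 and 100% in the other 3. Of the axon guidance genes, Ntn1, the secreted cue netrin, was enriched in all 6 libraries. Efna3, an ephrin ligand, was at 0% in BHAM480, 91.4% in BHAM359 and 100% in the other 4. The histone island of Hist2h2aa1 and Hist2h3c1, of which 91.4% was repeated sequence, was at 100% in BHAM359 and 0% in the other 5.

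Between TDG KD and siRNA control the mean over long CGIs did not separate the groups. The share enriched was 56.2 ± 36.9% in TDG KD and 54.0 ± 9.78% in the siRNA control (SD, n = 2 each), a difference of 2.11 percentage points (exact two-sided permutation test, p = 1, where 2 against 2 libraries allow no p below 0.333). It was 9.30 points over the length that was not unconfident and 0.202 points without the 25% of enriched domains of lowest value, each with p = 1 by the exact test. Single libraries decided it, with 28.2 points without BHAM480, −24.0 without EAR003, 9.02 without BHAM479 and −4.80 without EAR001. Both siRNA control libraries lay between the TDG KD libraries. Within the prefixes of the library names the difference was −30.9 points for BHAM480 minus BHAM479 and 35.1 points for EAR003 minus EAR001. The excess averaged 0.0173 ± 0.0120 in TDG KD and 0.00841 ± 0.00469 in the siRNA control, a difference of 0.00889 (exact permutation test, p = 0.667), which was 0.0174 without BHAM480, 0.000399 without EAR003 and 0.00557 without EAR001. It was −0.00292 within the BHAM prefix and 0.0207 within the EAR prefix. What the prefixes stand for is not given in the sources used here.

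Island by island, 0 of the 450 long CGIs with a value in every library passed the threshold of 0.05 for TDG KD against siRNA control (limma with Benjamini-Hochberg adjustment over 25475 CGIs), and 0% of all CGIs did. At an unadjusted p under 0.05, 8 of the 450 long CGIs were higher in TDG KD and 0 lower. Of all 25475 CGIs, 83 (0.326%) were higher and 20 lower. With the prefix as a block, 21 long CGIs were higher (4.67%, against 1.76% of all CGIs) and 0 lower, and the adjusted count was 0.

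In the BHAM pair TDG KD exceeded control in 136 of 450 long CGIs and in the EAR pair in 395. The pairs gave the same sign with a higher value in TDG KD in 110 and with a lower one in 29. Both TDG KD libraries lay above both control libraries in 84 long CGIs (18.6%, against 10.1% of all CGIs) and below both in 21 (4.66%, against 11.2%). Among unique sequence the shares were 19.9% of long against 13.5% of all CGIs above, and 3.36% against 8.38% below.

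In 14 long CGIs both TDG KD libraries and neither siRNA control library were enriched (3.10%, against 0.724% of all CGIs), and in 0 the reverse held (0%, against 1.3%). With islands of unique sequence only, the shares were 3.36% of long against 1.09% of all CGIs, and 0% against 1.11%. BHAM359 was enriched in all 14 and BHAM470 in 10, so 10 of the 14 were enriched in both wild-type libraries. In 11 of the 14, both control libraries were at 0%.

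Among the 14 were the islands of Wt1, Gnas, Pcdh10 (gene body), Tshz3, Cpeb1, Ncam1, Ubtf, Zbtb1 with Zbtb25, Gsc, Rreb1, Tsc22d1 and Trio. Gsc is a homeobox gene, Wt1 encodes a zinc finger factor of kidney and gonad, and Pcdh10 and Ncam1 encode adhesion molecules of neurons. The body island of Pcdh10 (2030 bp, 100% coding) had an excess of 0.0448 and 0.0399 in TDG KD, −0.00837 and −0.00468 in the siRNA control and 0.0565 and 0.0298 in wild type. Its TDG KD values lay among the wild-type values. The choice of these islands by their calls in TDG KD and control sets that contrast, so their values are a description with no test.

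Ncam1 had an excess of 0.0255 and 0.0446 in TDG KD, −0.00328 and −0.00180 in the siRNA control and 0.0479 and 0.0528 in wild type, and Rreb1, a zinc finger factor of Ras signaling, 0.0387 and 0.0358, −0.000633 and −0.000692, and 0.0526 and 0.0388 in the same libraries. In each the control values were near the library mean. The calls were closest at Tshz3, a zinc finger factor, where TDG KD was enriched over 82.0% and 100% and the control over 35.0% and 43.8%.

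Fzd8, a Wnt receptor, had the next difference in size after Pcdh10 among unique islands with the same sign in both pairs, with an excess of 0.0557 and 0.0490 in TDG KD, 0.0218 and −0.00364 in the siRNA control and 0.0685 and 0.0404 in wild type. Its BHAM479 island was nevertheless enriched over 100% of its length. Tchh, a body island of a hair follicle protein, had 0.0355 and 0.0674, 0.0289 and −0.00306, and 0.0510 and 0.0288 in the same libraries. In these 2 islands the BHAM479 value was high and the EAR001 value was below 0.

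On the lower side, the largest differences with the same sign in both pairs were at repeated islands. The body island of Park2 had an excess of −0.0229 and −0.00151 in TDG KD, 0.00338 and 0.00324 in the siRNA control and −0.0194 and −0.0109 in wild type. An island on chromosome 1 (chr1:123099174-123101424) had 0.000882 and −0.00135, 0.0252 and 0.00238, and −0.00698 and 0.00262, and was enriched in BHAM479 alone. Next came 3 islands of mostly unique sequence. That of E030030I06Rik had −0.0203 and −0.00839 in TDG KD, −0.00373 and 0.00105 in the siRNA control and 0.0207 and −0.00348 in wild type. Spry2, an inhibitor of receptor tyrosine kinase signaling, had −0.0120 and −0.00900 in TDG KD, −0.00494 and −0.00332 in the siRNA control and 0.0199 and 0.0266 in wild type. Tle4, a corepressor, had −0.0135 and −0.0119, −0.00911 and −0.00434, and 0.0184 and −0.0100 in the same libraries.

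**Figure D5:**
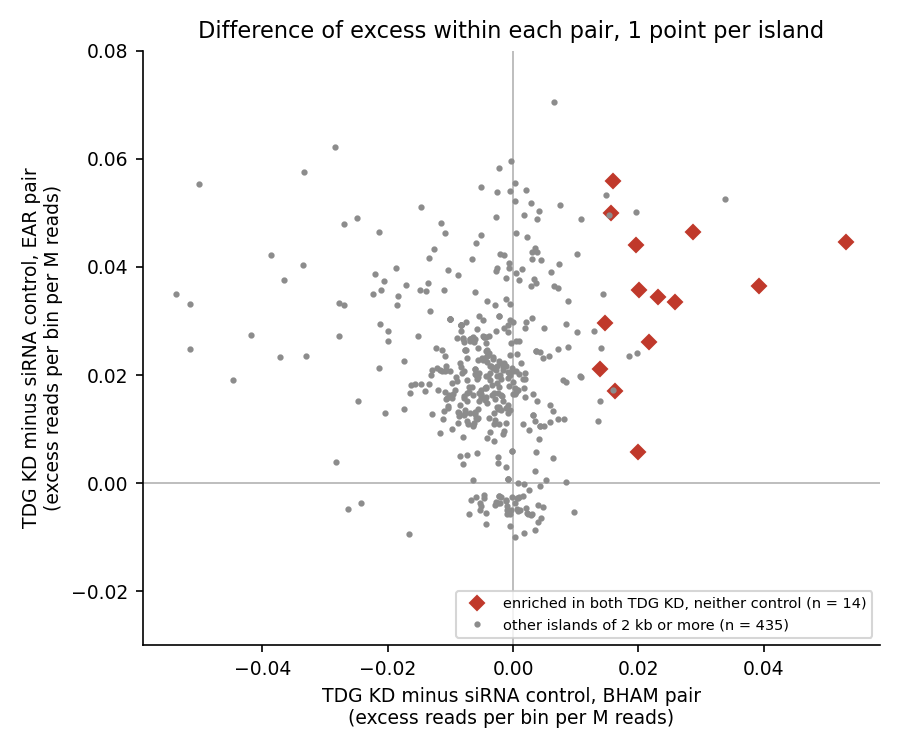
TDG KD minus siRNA control difference in excess for each long CGI within the EAR pair (y axis) against the BHAM pair (x axis), in reads per 100 bp bin per M reads. The 14 islands enriched in both TDG KD and neither control library (red) were chosen by calls from this contrast, so that their place above 0 on both axes follows from the choice. Of all 450 long CGIs with a value, 110 lie above 0 on both axes. The island over AY036118, off the scale, and 1 without a value are left out.

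Against wild type, the siRNA control was lower at the long CGIs in both measures, but 2 against 2 libraries cannot give a p under 0.333. The share enriched was 54.0 ± 9.78% in the siRNA control and 73.8 ± 4.22% in wild type (SD, n = 2 each), a difference of −19.7 points with no overlap (exact permutation test, p = 0.333, the smallest possible). The excess was 0.00841 ± 0.00469 in the siRNA control and 0.0290 ± 0.0162 in wild type, a difference of −0.0206 (exact permutation test, p = 0.333), which was −0.00915 without BHAM359 and −0.0321 without BHAM470. The difference in share was −12.8 points without EAR001 and −13.1 points without the 25% of enriched domains of lowest value. By island, 0 of 450 long CGIs and 0% of all CGIs passed the adjusted threshold (limma). At an unadjusted p under 0.05 in the same fit, 53 of the 450 long CGIs were lower in the siRNA control and 0 higher. Of all 25475 CGIs, 1602 (6.29%) were lower and 64 higher. Without BHAM470, 154 long CGIs (34.2%, against 36.3% of all CGIs) passed as lower (limma, adjusted), when BHAM359, the library with narrow domains, was the only wild-type one and was assumed to vary like the other groups.

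Enrichment in both wild-type libraries and in no siRNA library was seen in 7 long CGIs (1.55%, against 1.34% of all CGIs), a share near that background. They were the islands of Tle3, Mycn, E2f3, Rbpj, Pcbp1, Hmx2 and Hspa1a, of which that of Hspa1a was 85.7% repeated sequence. Mycn, a proto-oncogene of stem and progenitor cells (3115 bp), was at 0% in all 4 siRNA libraries and 100% in both wild-type libraries, with an excess of −0.000133 and −0.00237 in the siRNA control and 0.0421 and 0.0225 in wild type. Rbpj, the DNA-binding effector of Notch signaling, was at 0% in all 4 siRNA libraries, against 76.6% and 54.8% in wild type. E2f3, a cell cycle transcription factor, was at 26.4% in EAR003 and 0% in the other 3 siRNA libraries, against 78.1% and 83.6% in wild type.

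Imprinted genes gave mixed values. The island at a TSS of Gnas, which encodes a G protein subunit (4036 bp), was at 93.5% and 88.3% in TDG KD, 0% in both control libraries and 61.9% and 0% in wild type. Its TDG KD minus siRNA control difference in excess was 0.0239. At another long CGI, in the body of Gnas and starting at chr2:174123965, that difference was 0.00188. Rasgrf1 was at 100% in all 6 libraries. Igf2, a growth factor gene, was at 32.9% in EAR001, 90.1% in BHAM359 and 100% in the other 4, and Cdkn1c, a cell cycle inhibitor, was at 0% in BHAM480 and 100% in the other 5.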

How the data were processed

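DNA pulled down for 5fC from 6 libraries of J1 ES cells in 3 groups of 2 was compared with 1 input library. The authors aligned reads to mm9 with BWA 0.6.1 (CASAVA is also named in the submitters' processing notes) and kept reads of mapping quality of at least 15. They ran rseg on each library against the shared input. The deposited score of each domain is the mean of pulldown minus input reads per 100 bp bin, with a state of enriched, background or unconfident, and the last column of the files was not used. Reads behind single islands are not in these values, so no counting interval can be given, and the depth per island is unknown. The scores were divided by the study's numbers of uniquely placed reads per library.

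CGIs were called on the mm9 sequence with a running score (CpG +17, other base −1), at least 200 bp, GC over 50% and CpG ratio over 0.6, and classed with GENCODE transcripts of protein-coding genes. An island was enriched from 50% of its length and repeated when over 25% of its 40-base words were not unique. Differences within libraries were tested by an exact two-sided sign-flip test over the 6 libraries, with 9 tests adjusted together, and differences between groups by an exact permutation test. Single islands were tested with limma 3.58.1 (R 4.3.3) over 25475 CGIs and all 3 groups. Python 3.11.15, NumPy 2.4.6, pandas 2.3.3, numba 0.67.0 and Matplotlib 3.10.9 were used. The tests were checked on simulated data.

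Libraries were grouped by their GEO labels, and the study calls the replicates biological. Named islands were the 10 longest, the 3 highest and 3 lowest in mean excess of each class, the 5 highest and 5 lowest in TDG KD minus control with the same sign within both prefixes, the 5 longest enriched in no library, the 5 longest enriched in wild type only and the longest of each gene list. Other islands named were chosen after their values were seen. The members, gene lists and tests were chosen with earlier results of these data known. Alternatives changed the length, GC and CpG limits, the TSS rule, the enrichment call, the scaling, the flanks and the libraries. Leaving out repeated islands or the AY036118 island was added after seeing the data. Some islands and sequences are not reported here.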

Additional observations from a re-analysis of the deposited data

Results flagged for a closer look

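The difference between TDG KD and siRNA control over the 451 long CGIs had opposite signs in the library pairs with the same name prefix. In percent of length enriched it was −30.9 for BHAM480 minus BHAM479 and 35.1 for EAR003 minus EAR001. In excess per M reads it was −0.00292 for the BHAM pair and 0.0207 for the EAR pair. With 1 library per group in each pair the difference between the pairs was not tested. BHAM480 had 504.9 Mb in unconfident domains. Over the length that was not unconfident, the difference between the groups was 9.30 percentage points (exact permutation test, p = 1), against 2.11 over the whole length.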

How the results depend on the processing

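Across 17 results and 237 alternatives, 167 kept their direction and side of the threshold (counts within 1.5 times) and 11 reversed. For some alternatives the side of the threshold was fixed by the number of libraries. Comparisons of 2 against 2 libraries cannot pass 0.05, nor can the sign-flip test on 5 libraries. Without repeated islands, long minus shorter CGIs was 6.27 percentage points and 0.00304 in excess, TSS minus neither 0.983 points, TSS minus body −13.0 points, body minus neither −0.000249 in excess, and 19 islands were enriched in no library. The AY036118 island was kept in that setting. For islands of at least 1500 bp, the excess was −0.00207 for TSS minus body and 0.0125 for body minus neither, the difference to flanks 16.7 points, and 191 islands were enriched in all 6 and 116 in no library. For at least 3000 bp these were 0.000511 (TSS minus body), 17.5 points, 23 and 13, with TSS minus body at 9.85 points and TDG KD minus control at −0.351 points. With GC of at least 55% and a CpG ratio of at least 0.65, TSS minus body was −10.4 points and 25 islands were enriched in none. Counting a TSS within 1 kb gave TSS minus body of 2.69 points and 2.75e-05 in excess, and transcripts of all gene types gave 0.831 points and −0.00589, with body minus neither at 0.0209. Without chromosome 8, TSS minus body was −0.00126 in excess. Without the AY036118 island, body minus neither was 0.0164 in excess. Without the 25% of enriched domains of lowest value, 51 islands were enriched in all 6, and with a call from 1 bp, 28 in none. The cause of each shift was not tested.

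Leaving out 1 library, where 5 libraries allow no p under 0.0625, gave 17.9 to 22.2 points and 0.00744 to 0.00972 for long minus shorter CGIs, 32.2 to 39.2 points for TSS minus neither, −5.37 to −1.23 points and −0.00289 to −0.00187 for TSS minus body, 37.4 to 40.7 points and 0.00897 to 0.0157 for body minus neither, and 13.4 to 21.1 points and 0.00555 to 0.0108 against flanks. TDG KD minus control ran from −24.0 points without EAR003 to 28.2 points without BHAM480, with −4.80 points without EAR001, and from 0.000399 to 0.0174 in excess. Control minus wild type ran from −26.6 to −12.8 points and from −0.0321 to −0.00915. Islands enriched in every library numbered 89 to 175, the most without BHAM480, and in none 46 to 59. Single islands called by limma numbered 0 to 0 for TDG KD against control and 0 to 154 for control against wild type, the most without BHAM470.

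The labels give no replicate numbers that pair libraries, so the name prefix served as the replicate block: within the BHAM prefix TDG KD minus control was −30.9 points and −0.00292 in excess, and with the block limma called 0 islands. An alternative that drops soft-masked sequence was not run, because the sequence used here carries no such marks.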
